A study of Ciona robusta with 6 samples.

Results

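The sensory and excitability channel genes *Asic* (KH2013:KH.C1.215), *HCN* (KH2013:KH.C10.454) and *Ano7* (KH2013:KH.C8.585) were followed across 6 RNA-seq libraries of *Ciona robusta*, a tunicate. They were picked by identifier, and all 3 rows were found among the 15232 KyotoHoya (KH) gene models of the count table. The cells were sorted by a reporter of the bipolar tail neuron (BTN) lineage, which gives rise to sensory neurons of the larval tail. Embryos grown at 20°C were dissociated at 9.5 hours post-fertilization (hpf), and BFP+ or RFP+ cells were collected by fluorescence-activated cell sorting.

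Every embryo, controls included, was electroporated with a plasmid in which a *Neurog* BTN driver runs a fluorescent protein. The same driver also ran *lacZ* in the control group, the proneural factor *Neurog* in the second group, and *Neurog:WRPW*, a dominant-repressor form of Neurog, in the third. Each group has 2 libraries, which the study describes as biologically independent. Electroporated plasmids are taken up mosaically by *Ciona* embryos, and no cell type was removed by counterselection. Thus a sorted pool holds whatever cells carried the reporter. The paper allows that the driver may be leaky in other tissues, so cells from outside the BTN lineage may be included. In the control most of the BTN lineage is epidermal at this age. The paper describes Neurog as turning all cells of the lineage into extra BTNs, and Neurog:WRPW as abolishing BTN fate. By that description the mix of cells differs between the groups. In such bulk pools, fewer cells of a type and less RNA per cell cannot be told apart.

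The 3 genes encode membrane proteins with different roles. Acid-sensing ion channels (ASICs) are sodium channels of the DEG/ENaC superfamily that open when the outside of the cell turns acidic, and in vertebrates they are known from sensory neurons. HCN channels open upon hyperpolarization, bind cyclic nucleotides, and carry the inward current that sets resting potential and rhythmic firing in many vertebrate neurons and in heart muscle. Anoctamins include calcium-activated chloride channels and lipid scramblases. Which of these activities the *Ciona* Ano7 has was not measured here. *Asic* is used as a reporter gene for BTNs, and *Ano7* was probed by in situ hybridization in the same study.

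The template of the *Ano7* hybridization probe is shown because it identifies the transcript that was stained in embryos. It is listed in the study's supplementary tables, and the first 300 bases are shown in lower case, with no part marked.

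Ano7 probe template, bases 1 to 300: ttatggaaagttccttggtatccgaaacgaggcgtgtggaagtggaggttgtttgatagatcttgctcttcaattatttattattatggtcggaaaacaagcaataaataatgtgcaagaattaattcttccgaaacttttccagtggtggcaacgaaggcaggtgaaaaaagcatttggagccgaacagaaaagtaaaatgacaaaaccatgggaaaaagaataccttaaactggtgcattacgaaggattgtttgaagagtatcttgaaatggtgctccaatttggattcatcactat

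Stop codons and GC content were counted over the 399 bases at hand, of the 500 listed, and not over the printed 300 alone. Of the 3 forward reading frames of the 399 bases, only frame 2 has no stop codon, whereas frames 1 and 3 hold 8 and 9 stops. The GC content of the 399 bases is 39.1%. The count table gives an exon length of 4212 bases for the *Ano7* gene model, 3537 for *Asic* and 2410 for *HCN*, and genome positions were not analysed here.

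The libraries totalled 10315548 to 24499397 counts, with 13009 to 14497 gene models detected. *Neurog* itself (KH.C6.129) checks the labels. Its level was, in CPM (counts relative to the TMM-scaled library total), 90.1 and 134 for lacZ, 3934 and 3975 for Neurog, but only 109 and 190.3 for the libraries labelled Neurog:WRPW. The paper set *Neurog* aside when comparing with single-cell data, because reads from the electroporated plasmids confound it. These values may thus include plasmid transcripts and are not a level of the embryo's own gene alone. The high values bear out the Neurog label, whereas *Neurog* counts do not by themselves check the Neurog:WRPW label. The Neurog:WRPW replicate 2 library is the shallowest, and per the study's methods it was made from the fewest cells. Replicate 1 of that group was made from the most cells. The paper proposes that this gap may have lowered statistical support for Neurog:WRPW. Cell numbers also differed in the other groups, with more cells in replicate 1 of lacZ and in replicate 2 of Neurog. A gene was called when its LogFC (log2 fold change) lay beyond 0.6 or -0.6 with an unadjusted p under 0.05, the study's own thresholds, and adjusted p-values are Benjamini-Hochberg values over the 12253 genes tested with the quasi-likelihood test of edgeR. That unadjusted p borrows its estimate of spread from all genes and groups, because an exact permutation test of 2 against 2 libraries could not go below 0.333.

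All 3 channel genes were higher in Neurog and lower in Neurog:WRPW than in lacZ. Their ranges did not overlap in either comparison: for each gene, both Neurog libraries lay above both lacZ libraries, and both Neurog:WRPW libraries lay below both lacZ libraries. Of all genes tested, 18.6% had Neurog libraries that lay entirely above lacZ, 13.7% had Neurog:WRPW libraries entirely below, and 3.97% had both. The 3 genes were called up in Neurog, as were 4.36% of genes (1.83% were called down), and called down in Neurog:WRPW, as were 1.19% (0.318% were called up). Both calls together were met by 58 genes, or 0.473%. No gene of the table passed an adjusted p of 0.05 in either comparison with lacZ under edgeR's quasi-likelihood test, with 771 (6.29%) and 191 (1.56%) genes under an unadjusted p of 0.05. At that adjusted p, edgeR's exact test called 157 and 2 genes and DESeq2 called 220 and 4.

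**Figure D1:**
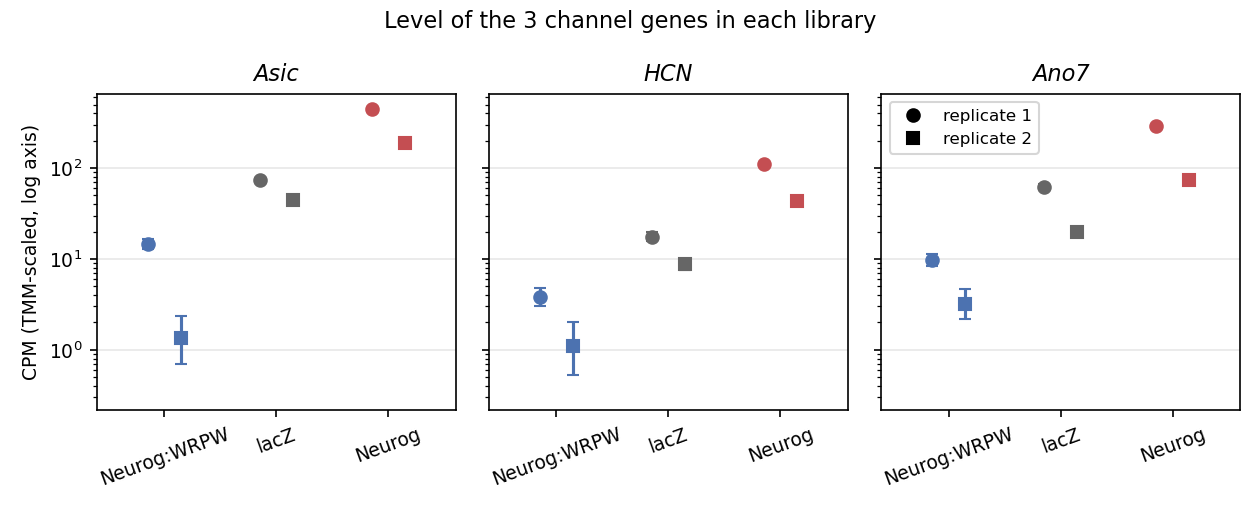
TMM-scaled CPM (log axis) of *Asic*, *HCN* and *Ano7* in each of the 6 libraries, by group. Circles are replicate 1, squares are replicate 2, and bars are 95% Poisson intervals, which cover counting error only. Each gene steps up from Neurog:WRPW to lacZ to Neurog, and replicate 1 lies above replicate 2 in every group.

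*Asic* drew 1325 and 1020 reads with lacZ, 8280 and 3384 with Neurog, but only 276 and 12 with Neurog:WRPW. On the CPM scale the lacZ libraries stood at 73.6 and 44.8, the Neurog libraries at 451 and 189.9, and the Neurog:WRPW libraries at 14.6 and 1.33. The lower Neurog library was thus still above the higher lacZ library, and the higher Neurog:WRPW library was below the lower lacZ library. The Neurog:WRPW libraries stood apart from each other more than those of any other group, by 10.9-fold. Their 95% Poisson intervals, 12.9 to 16.4 CPM and 0.689 to 2.33 CPM, did not overlap.

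*Asic* rose in Neurog by a LogFC of 2.44 (SE 0.96, edgeR adjusted p = 0.749), a 5.41-fold difference. It fell in Neurog:WRPW, with a LogFC of -2.85 (SE 0.99, edgeR adjusted p = 1.00), or 7.23-fold lower. The rise lost its call when any of 3 libraries was left out: it was 2.86 (SE 1.38) without lacZ replicate 1, 2.12 (SE 1.33) without lacZ replicate 2 and 1.73 (SE 1.08) without Neurog replicate 1. The fall lost its call only without lacZ replicate 1, at -2.44 (SE 1.16). It was -5.47 without Neurog:WRPW replicate 1, when the 12 reads of replicate 2 stood for the group, and -2.02 (SE 0.66), still called, without replicate 2. No left-out library turned either direction.

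*HCN* was the lowest of the 3 genes in reads, with 316 and 200 from lacZ, 2025 and 783 from Neurog, and 73 and 10 from Neurog:WRPW cells. In CPM, Neurog:WRPW libraries held 3.85 and 1.11, lacZ libraries 17.6 and 8.78, and Neurog libraries 110.2 and 43.9. Again no group overlapped another. Replicates differed by 2.00-fold in lacZ, 2.51-fold in Neurog and 3.47-fold in Neurog:WRPW. The mean CPM was 2.48 ± 1.94 for Neurog:WRPW, 13.2 ± 6.21 for lacZ and 77.1 ± 46.8 for Neurog (SD, n = 2 each).

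*HCN* rose in Neurog by a LogFC of 2.55 (SE 0.69, edgeR adjusted p = 0.541), or 5.86-fold, with the smallest SE of the 3 genes. In Neurog:WRPW it fell with a LogFC of -2.33 (SE 0.72, edgeR adjusted p = 1.00), or 5.04-fold lower. Without lacZ replicate 2 the rise was 2.13 (SE 0.89), and without Neurog replicate 1 it was 1.79 (SE 0.74), both past the LogFC threshold but not the p threshold. The fall lost its call too, at -1.74 (SE 0.80) without lacZ replicate 1 and at -1.77 (SE 0.74) without Neurog:WRPW replicate 2. Without Neurog:WRPW replicate 1 it was -3.56, more than 1.5 times the value from all libraries on the log2 scale. For *HCN*, the rise was the only one of the 3 with an adjusted p under 0.05 in both other tools, 0.0485 with edgeR's exact test and 0.0189 with DESeq2.

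*Ano7* was read 1121 and 450 times with lacZ, 5349 and 1335 times with Neurog, and 186 and 29 times with Neurog:WRPW. Its CPM was 9.82 and 3.22 for Neurog:WRPW, 62.3 and 19.8 for lacZ, and 291 and 74.9 for Neurog. Here the groups came closest to meeting, since Neurog replicate 2 at 74.9 CPM lay little above lacZ replicate 1 at 62.3 CPM. Their 95% Poisson intervals, 71.0 to 79.1 CPM and 58.7 to 66.1 CPM, did not overlap, but that distance was smaller than the spread within either group. Group means were 6.52 ± 4.66 CPM for Neurog:WRPW, 41.0 ± 30.1 for lacZ and 183 ± 152.8 for Neurog (SD, n = 2 each).

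The LogFC of *Ano7* in Neurog was 2.16 (SE 0.87, edgeR adjusted p = 0.768), a 4.46-fold rise. That in Neurog:WRPW was -2.62 (SE 0.90, edgeR adjusted p = 1.00), or 6.15-fold lower. The rise of *Ano7* passed the p threshold by little and depended most on single libraries, being 0.92 (SE 0.84) without Neurog replicate 1 and 1.56 (SE 1.02) without lacZ replicate 2, both no longer called, against 3.23 (SE 1.11) without lacZ replicate 1. Its fall lost the call at -1.55 (SE 0.92) without lacZ replicate 1 and at -2.06 (SE 1.06) without Neurog:WRPW replicate 2.

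Set directly against each other, the Neurog and Neurog:WRPW libraries gave larger differences, and every call held when single libraries were left out. In this fit such a LogFC equals the LogFC in Neurog minus that in Neurog:WRPW. The larger size thus follows from the opposite directions against lacZ and adds no separate evidence. The LogFC of Neurog vs. Neurog:WRPW was 5.29 for *Asic* (SE 1.10, edgeR adjusted p = 0.160), a 39.1-fold difference. For *HCN* it was 4.88 (SE 0.78, edgeR adjusted p = 0.0948), or 29.5-fold, and for *Ano7* it was 4.78 (SE 0.99, edgeR adjusted p = 0.160), or 27.5-fold. In this comparison 7.08% of the genes tested were called up and 3.49% down. An unadjusted p under 0.05 was met by 10.8%, and an edgeR adjusted p under 0.05 by 5 genes (0.0408%), none of them among the 3. All 3 had an adjusted p under 0.05 with edgeR's exact test, which called 394 genes at that level, and with DESeq2, which called 514. The 3 genes ranked 27, 38 and 46 from the highest LogFC among 12253. All 3 calls held in each of the 6 fits that left out a library, although for *Asic* the LogFC ran from 4.46 without Neurog:WRPW replicate 2 to 7.90 without Neurog:WRPW replicate 1. For *Ano7* the lowest was 3.53, without Neurog replicate 1. The comparisons with lacZ share the lacZ libraries, and those with Neurog:WRPW share its libraries, so the 3 comparisons are not independent of one another.

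**Figure D2:**
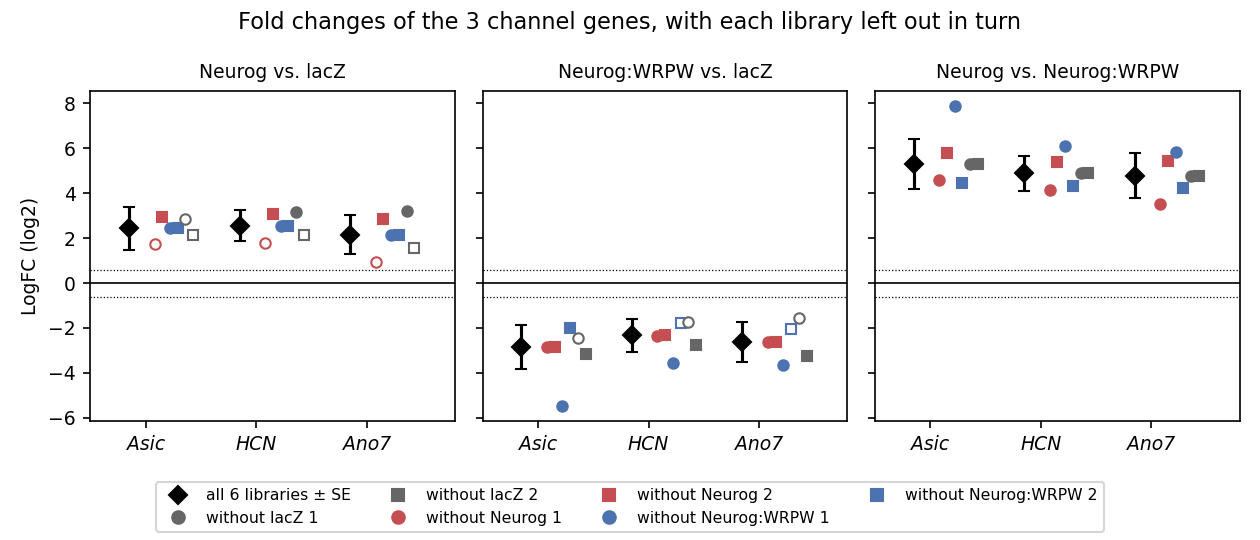
LogFC (log2) of the 3 genes in each comparison. Black diamonds with bars are the fit of all 6 libraries ± SE, and circles and squares are the fits that left out 1 library, open where the call was lost. Dotted lines mark LogFC 0.6 and -0.6. Open symbols occur in both comparisons with lacZ, and all symbols of Neurog vs. Neurog:WRPW are filled, from 3.53 to 7.90.

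The 3 genes also varied in step between replicates. Replicate 1 was above replicate 2 for each gene in each group. For *Ano7* this difference was 3.15-fold in lacZ, 3.88-fold in Neurog and 3.05-fold in Neurog:WRPW, while for *Asic* it was 1.64-fold, 2.37-fold and 10.9-fold. This order of replicates was not particular to the 3 genes. The summed CPM of the BTN markers, other channel genes and other tissue markers described below had it in every group. The markers of other central nervous system neurons had it except in lacZ, at 467 and 470.0 CPM. Over the 6 libraries, Pearson's r of log2(CPM + 1) was 0.979 for *Asic* and *HCN*, 0.971 for *Asic* and *Ano7*, and 0.988 for *HCN* and *Ano7*. These values describe 6 points that share libraries and group steps. Out of 7968 genes with a mean of at least 8 CPM, *HCN* ranked 33 and *Ano7* ranked 57 by likeness to *Asic*, and *Ano7* ranked 26 by likeness to *HCN*. An r over 0.9 was met by 357 genes for *Asic*, 459 for *HCN* and 398 for *Ano7*.

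Divided by exon length (RPKM, here CPM per kilobase of exon), *Asic* was the most abundant of the 3 transcripts in 5 of 6 libraries. In lacZ it stood at 20.8 and 12.7 RPKM, *Ano7* at 14.8 and 4.69, and *HCN* at 7.29 and 3.64. The order was the same in both lacZ libraries, but the *Ano7* and *HCN* ranges overlapped there. In Neurog, *Asic* reached 127 and 53.7 RPKM, *Ano7* 69.1 and 17.8, and *HCN* 45.7 and 18.2, so that *Ano7* and *HCN* changed places in replicate 2. In Neurog:WRPW replicate 1 the levels were 4.12 for *Asic*, 2.33 for *Ano7* and 1.60 for *HCN*.

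Neurog:WRPW replicate 2 broke this order, with 0.765 RPKM for *Ano7*, 0.461 for *HCN* and 0.377 for *Asic*. The per-length ratio of *Asic* to *HCN* was 2.58 to 3.475 in 5 libraries and 0.818 in this one. The ratio of *Asic* to *Ano7* was 1.41 to 3.02 in the other 5 libraries and 0.493 here. These ratios rest on 12 reads of *Asic*, 10 of *HCN* and 29 of *Ano7*, and the Poisson intervals of *Asic* and *HCN* in CPM, 0.689 to 2.33 and 0.533 to 2.04, overlap. Among the gene models detected in each library, *Asic* ranked at the 96.1 and 89.5 percentiles by RPKM with Neurog, at 76.5 and 66.1 with lacZ, and at 43.7 and 9.20 with Neurog:WRPW. In the same order *HCN* ranked at 87.4 and 72.8, at 53.5 and 42.2, and at 28.5 and 10.4. *Ano7* ranked at 91.9 and 72.2, at 69.7 and 46.4, and at 34.0 and 14.8.

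Markers of the BTNs moved in the same direction as the 3 genes. The 47 BTN markers of the study's in situ survey, *Ano7* left out, summed to 2564 and 1519 CPM with lacZ and to 11505 and 6358 with Neurog. They summed to 1390.3 and 735 with Neurog:WRPW, where 6 of the 47 were at 0 in replicate 2. Of these markers 35 were called up in Neurog, against 4.36% of all genes tested, and 19 were called down in Neurog:WRPW, against 1.19%. The study chose them on these samples, so their direction is no independent evidence. Against this sum, *Asic* amounted to 28.7 and 29.5 CPM per 1000 CPM of BTN markers with lacZ, 39.2 and 29.9 with Neurog, and 10.48 and 1.81 with Neurog:WRPW. On the same scale *HCN* gave 6.85 and 5.78 with lacZ, 9.58 and 6.91 with Neurog, and 2.77 and 1.51 with Neurog:WRPW. *Ano7* gave 24.3 and 13.01 with lacZ, 25.3 and 11.8 with Neurog, and 7.06 and 4.39 with Neurog:WRPW.

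On this scale the Neurog libraries lay above both lacZ libraries for *Asic* and *HCN*, by little in replicate 2, and overlapped lacZ for *Ano7*. The Neurog:WRPW libraries lay below both lacZ libraries for all 3 genes. How many of all genes tested do the same on this scale was not computed, and the shares given above are for CPM. Whether the 3 genes differ from other genes on this scale was therefore not tested. The 15 markers of other central nervous system neurons summed to 467 and 470.0 CPM with lacZ, 1769.7 and 1558 with Neurog, and 256 and 252 with Neurog:WRPW, with 2 at 0 in replicate 2. The 13 markers of other tissues summed to 275 and 248, to 711 and 635, and to 143 and 118 CPM, with no more than 1 at 0 in a library. In Neurog 13 of the 15 and 11 of the 13 were called up. In Neurog:WRPW 6 of the 15 and 7 of the 13 were called down, and 1 of the 13 was called up. Such calls were thus not particular to the BTN markers. These lists come from the same in situ survey of candidate BTN genes, so their direction is no independent evidence either. The part of these lists in the differences of the 3 channel genes was not tested.

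**Figure D3:**
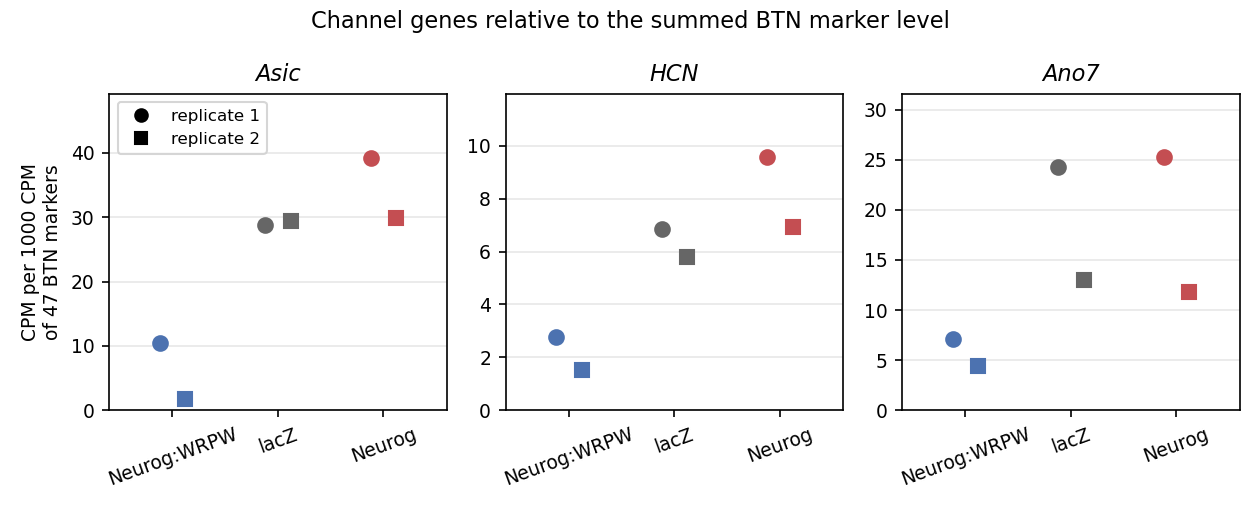
Level of each gene as CPM per 1000 CPM of the 47 BTN markers, in each library (each panel has its own axis from 0; circles are replicate 1, squares replicate 2). Both Neurog:WRPW libraries lie below both lacZ libraries in each panel. For *Asic* and *HCN*, Neurog replicate 2 lies close to lacZ and Neurog replicate 1 lies higher. For *Ano7* the Neurog and lacZ libraries overlap. The share of all genes with such an order on this scale was not computed.

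The study's gene lists name 29 other ion channel subunits and partners, taken here as a comparison group. Nearly all come from a list ordered by the response to Neurog, so their direction in Neurog is set by that choice. In Neurog 14 of the 29 were called up, none was called down and 15 did not pass, with a median LogFC of 1.59 against -0.03 over all genes tested. The count was 3 without lacZ replicate 2 and 8 without Neurog replicate 1. In Neurog:WRPW 1 of the 29 was called down, none up, and the median LogFC was -0.34 against -0.02 over all genes. With no filter on low counts 3 were called down. Without Neurog:WRPW replicate 1 there were 8 called down and 1 called up, and without lacZ replicate 1 there were none. The LogFC values of *Asic*, *HCN* and *Ano7* in Neurog lay within the range of the 29. In Neurog:WRPW, in the fit of all 6 libraries, they lay below the whole range of the 29, which ran from -2.17 for *Trpc* (KH.C7.587) to 0.67. This difference between the lists was not tested. The order was not kept without Neurog:WRPW replicate 2. In that fit *CNGA3* (KH.C7.605) stood at -2.79, below *Asic* at -2.02, *HCN* at -1.77 and *Ano7* at -2.06. The 3 genes were chosen with earlier results of these data known, and the paper names *Asic* among genes falling in Neurog:WRPW. Their place below the 29 is therefore not independent of that choice.

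**Figure D4:**
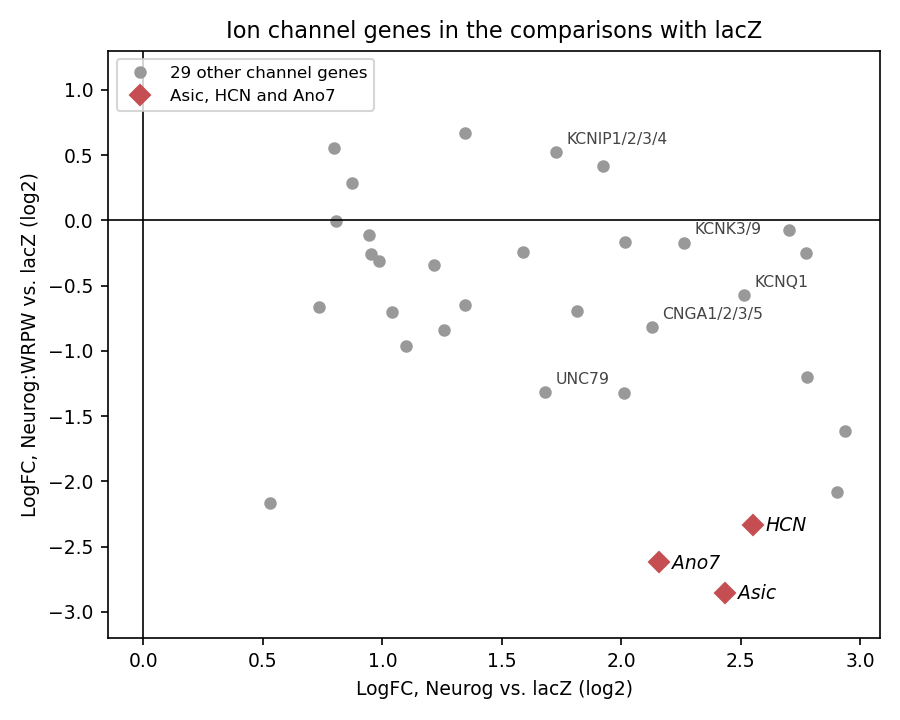
LogFC in Neurog vs. lacZ (x axis) against LogFC in Neurog:WRPW vs. lacZ (y axis) for the 3 genes (red diamonds) and 29 other channel genes (grey points); both axes are log2 and share the lacZ libraries. In the fit of all 6 libraries the 3 genes lie at 2.16 to 2.55 on the x axis, amid the others. On the y axis they lie at -2.33 to -2.85, below all of the others, an order not kept without Neurog:WRPW replicate 2.

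The list names 4 relatives of the 3 genes, of which 1 was called in Neurog and none in Neurog:WRPW. Of the DEG/ENaC channels, *ACCN4* (KH.C14.292) had a LogFC of 0.87 (SE 0.77) in Neurog and 0.29 (SE 0.77) in Neurog:WRPW, and *PPK/23* (KH.L22.55) had 0.80 (SE 0.51) and -0.01 (SE 0.52). Neither passed the test in either comparison. The cyclic nucleotide-gated channels, which in vertebrates serve photoreceptors and olfactory neurons, are relatives of HCN. Among them *CNGA1/2/3/5* (KH.C2.249) stood at 13.6 and 15.6 CPM with Neurog:WRPW, 33.2 and 18.3 with lacZ, and 96.4 and 128.5 with Neurog. It rose in Neurog by a LogFC of 2.13 (SE 0.36, edgeR adjusted p = 0.271), a call kept without each library in turn. Its LogFC in Neurog:WRPW was -0.82 (SE 0.35), which did not pass, but it was called at -0.83 with no filter on low counts and at -1.19 without lacZ replicate 2, and was -0.31 without lacZ replicate 1. *CNGA3* (KH.C7.605) had 1.26 (SE 1.00) and -0.84 (SE 1.03) and passed neither test. Single libraries decided both values of *CNGA3*: the first was 0.0023 without Neurog replicate 1, and the second was -2.79, and called, without Neurog:WRPW replicate 2, against 0.019 without Neurog:WRPW replicate 1. No further anoctamin is named in the list.

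Beyond the relatives, the channel genes with the smallest p include subunits of potassium and sodium leak channels and of voltage-gated potassium channels, and a protein that binds the latter. The potassium leak channels *KCNK3/9* (KH.L9.36) and *KCNK10/2/4* (KH.C10.531) rose by LogFC 2.26 (SE 0.51) and 0.94 (SE 0.25) in Neurog, calls kept without each library in turn. The voltage-gated potassium channel *KCNQ1* (KH.S346.10) rose by 2.51 (SE 0.67), and *KCNIP1/2/3/4* (KH.C5.253), a calcium-binding partner of such channels, by 1.73 (SE 0.47). Both calls were lost without lacZ replicate 2, and that of *KCNQ1* also without Neurog replicate 1. In Neurog:WRPW the LogFC of these 4 genes ran from -0.58 for *KCNQ1* to 0.52 for *KCNIP1/2/3/4*, and none passed. Without Neurog:WRPW replicate 1, *KCNIP1/2/3/4* was called up at 1.03 and *KCNQ1* stood at -1.57, whereas without replicate 2 they stood at -0.23 and -0.03. Without lacZ replicate 1, *KCNK3/9* stood at 0.66 and *KCNQ1* at 0.06.

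*UNC79* (KH.L135.1), a subunit of the sodium leak channel complex, was the one other channel gene called in both comparisons. Its CPM was 50.4 and 24.9 for Neurog:WRPW, 116.4 and 71.98 for lacZ, and 369.9 and 234 for Neurog. The groups did not overlap. Its LogFC was 1.68 (SE 0.45) in Neurog, lost without lacZ replicate 2, and -1.32 (SE 0.45, edgeR adjusted p = 1.00) in Neurog:WRPW, lost without lacZ replicate 1 or Neurog:WRPW replicate 2.

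*UNC79* was also the gene whose pattern over the 6 libraries was most like that of *HCN*, with Pearson's r of 0.998 on log2(CPM + 1). Next came *Slc24a* (KH.L50.5), a sodium, calcium and potassium exchanger, with r of 0.996, and KH.C5.481, which the study matched to the presynaptic scaffold protein Bassoon, with r of 0.995. Their LogFC values in Neurog and Neurog:WRPW were 2.00 and -1.33 for *Slc24a* and 2.76 and -2.01 for KH.C5.481, so all 3 shared the direction of *HCN* in both. These genes were picked by likeness over the same libraries, so that shared direction follows from the choice. The genes most like *Asic* were KH.C5.377 (r = 0.999), KH.L76.14 (r = 0.998) and KH.C8.660 (r = 0.996), whose steps were much smaller, at LogFC 0.14 and -0.20, 0.42 and -0.53, and 0.93 and -0.91. A high r thus shows the same order and spacing of libraries and not the same size of change. The genes most like *Ano7* were KH.C4.653 (r = 0.998), KH.C8.555 (r = 0.995), which the study matched to WDR37, and KH.C7.565 (r = 0.995). KH.C7.565 had LogFC values of 2.42 in Neurog and -3.06 in Neurog:WRPW, close to those of *Ano7*, whereas KH.C4.653 had 0.41 and -0.57 and KH.C8.555 had 0.76 and -0.68.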

How the data were processed

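The authors deposited raw counts per gene model, 1 column per library, not normalized. cDNA was made with a SMART-seq v4 kit. STAR 2.5.2b mapped the reads, and featureCounts assigned them to the exons of KH models after duplicates had been removed. The genome assembly and whether strand was used are not stated by the labels or the methods, and reads of overlapping or antisense genes may therefore be mixed. Lacking molecular identifiers, the counts have Poisson intervals that cover counting error only.

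Genes over 1 CPM in at least 2 of the 6 libraries (12253 of 15232 models) were scaled by TMM and fitted with edgeR 4.0.16 in R 4.3.3 (quasi-likelihood, two-sided, 3 groups, no other term). The study names edgeR and the LogFC and p thresholds, not the test or design. The common biological coefficient of variation was 0.421. RPKM used the deposited exon lengths. Groups came from the sample titles, and every library was used. Alternatives were RLE size factors, DESeq2 1.42.0, edgeR's exact test, filters of no minimum and of 1 CPM in 3 libraries, fits of the 2 groups compared, the replicate number as a factor, and leaving out each library. The script was tested on simulated data.

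The 3 genes and all lists were chosen with earlier results of these data known. Named beside them were their relatives, the 6 other channel genes with the smallest p in a comparison with lacZ, and, for each of the 3, the 3 genes of highest Pearson r. One of the 6 is not reported here. Names of KH models are those of the study's tables, and the deposited table pairs none.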

Additional observations from a re-analysis of the deposited data

How the results depend on the processing

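Each of the 9 differences of *Asic*, *HCN* and *Ano7* kept its direction and its side of the threshold (LogFC beyond 0.6 or -0.6, unadjusted p under 0.05) in 63 of 63 values from RLE size factors, DESeq2, edgeR's exact test, both other filters, fits of only the groups compared and the replicate block. Of 54 values that left out 1 library, 42 kept the call, 12 lost it and 0 reversed. Over these fits LogFC in Neurog ran from 1.73 to 2.93 for *Asic*, 1.79 to 3.15 for *HCN* and 0.92 to 3.23 for *Ano7*. In Neurog:WRPW it ran from -5.47 to -2.02, -3.56 to -1.74 and -3.67 to -1.55, and in Neurog vs. Neurog:WRPW from 4.46 to 7.90, 4.13 to 6.11 and 3.53 to 5.83. Where a left-out library leaves 1 in a group, that library is assumed to vary like the other groups.

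The adjusted p ranged widely. The low ends for the comparisons with lacZ come from the replicate block and for Neurog vs. Neurog:WRPW from DESeq2. The high ends for Neurog vs. lacZ and Neurog vs. Neurog:WRPW come from the fit without Neurog replicate 1. In Neurog vs. lacZ it ran over all alternatives from 0.0998 to 1.00 for *Asic* and from 0.0131 to 1.00 for *HCN* and *Ano7*. In Neurog:WRPW vs. lacZ it ran from 0.346, 0.205 and 0.113 to 1.00, and in Neurog vs. Neurog:WRPW from 2.43e-07 to 0.503, 2.30e-09 to 0.376 and 5.62e-07 to 0.491.

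The groups share replicate numbers, but no source says what a number marks, and 2 numbers a group do not by themselves establish pairing. The difference between replicates correlated across 7969 genes at 0.567, 0.624 and 0.561 between groups. With the replicate block, edgeR's LogFC (adjusted p) of *Asic*, *HCN* and *Ano7* was 2.31 (0.0998), 2.48 (0.0131) and 2.08 (0.0131) in Neurog, -3.25 (0.346), -2.48 (0.205) and -2.66 (0.113) in Neurog:WRPW, and 5.56 (0.00586), 4.96 (0.00137) and 4.73 (0.00137) in Neurog vs. Neurog:WRPW. The block called 813 genes up (534 without it) and 596 down (224) in Neurog, 142 up (39) and 435 down (146) in Neurog:WRPW, and 897 down (428) in Neurog vs. Neurog:WRPW. The fit of only the 2 groups compared called 97 down in Neurog:WRPW. At an adjusted p of 0.05 the block called 179, 0 and 461 genes, against 0, 0 and 5 without it. Of the 29 other channel genes the block called 20 up in Neurog (14 without it) and 7 down in Neurog:WRPW (1), with a median of -0.57 there, among them *CNGA1/2/3/5* (-0.81) and *KCNQ1* (-0.67).

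Leaving out each library gave 231 to 652 genes up and 97 to 327 down in Neurog, 31 to 141 up and 75 to 930 down in Neurog:WRPW, and 518 to 1460 up and 309 to 459 down in Neurog vs. Neurog:WRPW. The cause of these shifts was not tested. Depth limits most the Neurog:WRPW replicate 2 library, where *HCN* and *Asic* rest on 10 and 12 reads.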
